A study of Mus musculus with 8 samples.

Results

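The 37 interferon response genes described here are a list of named genes, chosen by their known role in the response. Earlier results of these data were known when the list was chosen. It covers 4 interferon receptors, 5 transcription factors, 4 genes of RNA sensing and 24 effectors and other induced genes. All 37 were found among the 24980 gene symbols of the count table, and all 37 passed the filter on low counts that left 17582 genes for testing. They were followed in 8 mouse RNA-seq libraries, 2 biological replicates in each of 4 groups. TF denotes myogenic progenitors isolated fresh from teratomas (tumors of mixed tissue that arise from injected pluripotent stem cells), and TE the same kind of progenitor at passage 8 in culture. SF denotes freshly isolated satellite cells, which are the resident stem cells of muscle, and SE satellite cells at passage 8 on the same gelatin-coated surface. The teratomas were made from the EGFP-labeled E14 embryonic stem cell line, so both teratoma groups carry the genome of 1 line, and grew for 4 weeks in the irradiated and cardiotoxin-injured tibialis anterior muscle of immunodeficient, dystrophin-deficient NSG-mdx4Cv mice. Progenitors were sorted as EGFP+ CD31- CD45- α7-integrin+ VCAM-1+ cells. No treatment with interferon was described for any group, and the strain and age of the mice that gave the satellite cells were not given in the sources used here. Libraries are named below by group and replicate (TF1, TF2 and so on).

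Interferons are secreted proteins that cells release on sensing foreign nucleic acid. Type I interferons bind the receptor of Ifnar1 and Ifnar2 and type II interferon that of Ifngr1 and Ifngr2, and both signal through Janus kinases to STAT proteins. With type I interferon, a complex that holds Stat2 and Irf9 binds the interferon-stimulated response element (ISRE) of target genes, whereas type II interferon acts through the gamma-activated site (GAS). The targets include the sensors, kinases and transcription factors of the pathway itself, so that a small basal signal sets how much of this machinery a cell holds, and stem cells are known to express part of it without infection.

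Promoter sequences are shown first for 6 of the genes, because these motifs are the sites through which the pathway acts on its targets. Windows from 250 bases before to 50 bases after the start were available for 28 of the 37 genes (RefSeq, GRCm38.p6), and those of Parp14, Mx1, Mx2, Oas2, Parp9, Usp18, Rtp4, Ifi27 and Dhx58 were not used here. The ISRE core was searched as GAAANNGAAA and the GAS as TTCNNNGAA, where N is any base, on both strands and with overlapping matches allowed. The ISRE core was found in 12 of the 28 genes (42.9%), against 3.99% of 27025 genes with a window, and the GAS in 9 (32.1%), against 9.55%. The 6 stretches are the 160 bases before the start, 5′ to 3′ on the gene's strand, and overlap no exon of the GENCODE M21 annotation. Capitals mark matches to either motif, and a match on the opposite strand reads TTTCNNTTTC for the ISRE core. Isg15 holds a run of overlapping ISRE cores, Oas1a overlapping cores and, farther from the start, a GAS, Ifit3 a pair of cores, Rsad2 a single one, Bst2 overlapping cores joined to a GAS, and Irf1 a GAS alone. They lie at chr4:156200819-156200978 on the minus strand (Isg15), chr19:34583369-34583528 on the plus strand (Ifit3), chr5:120907526-120907685 on the minus strand (Oas1a), chr8:71537473-71537632 on the minus strand (Bst2), chr12:26456453-26456612 on the minus strand (Rsad2) and chr11:53769854-53770013 on the plus strand (Irf1).
Isg15: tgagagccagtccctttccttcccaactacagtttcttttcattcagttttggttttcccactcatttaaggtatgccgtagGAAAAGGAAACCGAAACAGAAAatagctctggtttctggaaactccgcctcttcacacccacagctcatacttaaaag
Ifit3: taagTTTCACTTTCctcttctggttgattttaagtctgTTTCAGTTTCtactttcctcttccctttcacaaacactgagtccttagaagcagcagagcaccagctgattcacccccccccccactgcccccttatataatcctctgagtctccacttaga
Oas1a: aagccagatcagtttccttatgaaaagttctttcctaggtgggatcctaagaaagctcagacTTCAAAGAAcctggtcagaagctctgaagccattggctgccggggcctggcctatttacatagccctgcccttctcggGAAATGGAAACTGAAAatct
Bst2: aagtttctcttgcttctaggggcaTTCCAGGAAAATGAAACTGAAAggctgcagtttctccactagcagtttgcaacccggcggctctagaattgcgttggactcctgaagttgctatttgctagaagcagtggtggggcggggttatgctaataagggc
Rsad2: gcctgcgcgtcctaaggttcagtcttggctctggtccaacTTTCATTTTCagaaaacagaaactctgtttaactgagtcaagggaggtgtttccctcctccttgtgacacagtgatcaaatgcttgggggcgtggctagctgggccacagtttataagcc
Irf1: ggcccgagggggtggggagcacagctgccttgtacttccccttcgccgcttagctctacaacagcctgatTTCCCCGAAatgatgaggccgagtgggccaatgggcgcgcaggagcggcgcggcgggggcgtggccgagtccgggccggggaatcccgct

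The genes were compared by estimated read counts, given here as normalized counts, meaning counts divided by a size factor for the library. Totals ran from 11930961 to 21146632 counts per library. A limit of detection of 3 counts came to between 2.2 and 3.99 normalized counts in a library, and covers counting error only. Following the study's thresholds, a gene was called different where the fitted level of 1 group was over 25% more than that of the other and the adjusted p was under 0.05 (edgeR's quasi-likelihood test over all 17582 genes, 1 fit over the 4 groups, Benjamini-Hochberg adjustment). Fold changes are also given as log2 ± their standard error, with n = 2 libraries per group throughout. The libraries were labelled as biological replicates, and p-values measure only the spread between them.

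The myogenic markers were present in all groups, with 1 exception, but moved in unequal directions with expansion. The 8 myogenic markers summed to between 23400 and 51300 normalized counts in every library, and Pax7, the transcription factor that defines satellite cells, stood between 1200 and 5040. Chodl, by contrast, was at 2750 to 6870 in the fresh libraries and at 0 in 3 of 4 expanded libraries, with 2.37 in TE2. Mean levels of Myf5 (1110 in TF, 106 in TE, 1640 in SF and 99.1 in SE), Vcam1 (4640, 605, 6130 and 1450) and Pax7 (4090, 1410, 4420 and 1490) were lower in expanded cells, and those of Des (6010, 15700, 14100 and 24900) and Myod1 (803, 4940, 8000 and 10900) higher. Markers of other cell types were present in fresh libraries in spite of the sort and were nearly gone after expansion. The 12 macrophage and haematopoietic markers summed to 11600 in TF1, 1180 in TF2, 778 in SF1 and 853 in SF2, against 16.9 to 101 in expanded libraries, where Ptprc, Adgre1, Tyrobp, C1qa, C1qb and C1qc were at 0 in all 4. The 7 endothelial markers summed to 1440 to 7760 in fresh and 7.9 to 84.3 in expanded libraries, and the 6 fibro-adipogenic markers to 6570 to 17900 and 9.56 to 46.9. These sums moved with the contrast between fresh and expanded cells, and their part in the results below was not tested. In these bulk libraries, fewer cells of a type and less RNA per cell cannot be told apart.

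**Figure D1:**
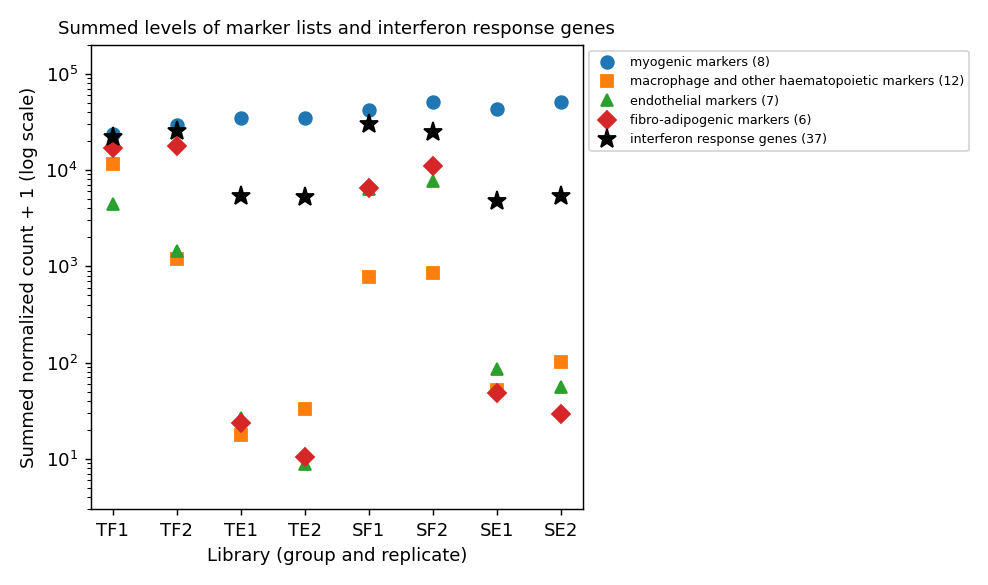
Summed normalized counts (plus 1, log scale) of 4 marker lists and of the 37 interferon response genes in each of the 8 libraries, 1 symbol per list and library, with the number of genes of each list in parentheses. The interferon response genes sum to between 22200 and 30100 in the 4 fresh libraries and between 4760 and 5370 in the 4 expanded ones, while the sums of the non-myogenic marker lists drop further. A sum gives most weight to abundant genes. The median log2 fold change over the 37 genes was -3.11 in TE versus TF and -3.35 in SE versus SF.

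Most of the interferon response genes were lower in expanded than in fresh cells of both origins. In TE versus TF 30 of 37 were called lower and 0 higher, where 16.2% of all genes tested were called lower. In SE versus SF 32 of 37 were called lower and 0 higher, against 19.8% of all genes called lower. In both comparisons 0 genes were higher also at an unadjusted p under 0.05 in edgeR and in the calls of DESeq2. These comparisons share no library, but both set expanded against fresh cells and came from the same fit. Of the 37 genes, 27 were called lower in both and 2 in neither (Ifngr2 and Irf3). In TE versus TF alone 3 were called lower (Dhx58, Trim25 and Rtp4). In SE versus SF alone 5 were called lower (Ifnar1, Stat2, Ifi27, Ifi35 and Ifi44). The share of all genes tested that was called lower in both was not counted. The median log2 fold change was -3.11 in TE versus TF, where the median of all genes tested was -0.18, and -3.35 in SE versus SF, where it was -0.23. In 32 of the 37 genes all 4 fresh libraries lay above all 4 expanded libraries, which was the case for 19.3% of all genes tested. A difference among the 4 groups of any kind was called for 34 of 37 genes, against 51.2% of all genes, the others being Ifngr2 (adjusted p = 0.195), Irf3 (0.13) and Trim25 (0.0591). TF1 was above TF2 in 11 of the 37 genes and below it in 26, a split that was not counted over all genes. The part of other cell types in these drops was not tested. Leaving out TF1 cannot show it, since TF2 held markers of those cells too.

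**Figure D2:**
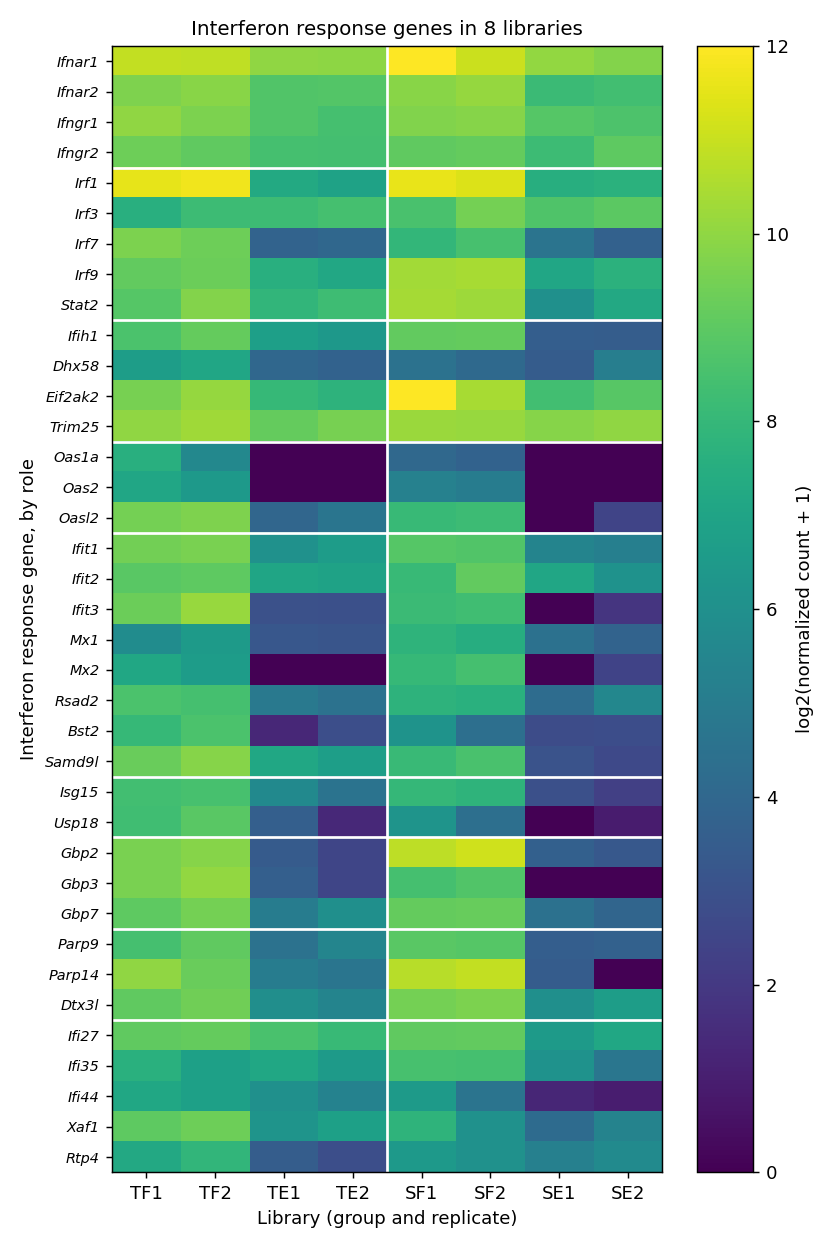
Heat map of log2(normalized count + 1) of the 37 interferon response genes (rows, grouped by role between white lines) in the 8 libraries (columns). The fresh libraries (TF1, TF2, SF1, SF2) are brighter than the expanded ones in most rows, and no gene has its highest group mean in TE or SE.

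The receptor genes were among the least changed. Ifnar1, the first chain of the type I receptor, had 1920 and 1840 normalized counts in TF, 1030 and 1010 in TE, 5610 and 2070 in SF, and 1060 and 861 in SE. Ifnar2, the second chain, had 824 and 938 normalized counts in TF, 426 and 436 in TE, 945 and 1080 in SF, and 293 and 332 in SE. Ifngr1, the ligand-binding chain of the type II receptor, had 1030 and 794 normalized counts in TF, 426 and 353 in TE, 838 and 891 in SF, and 460 and 405 in SE. For all 3 genes every fresh library lay above every expanded one. Ifnar2 was 1.97-fold lower in TE than TF (-0.98 ± 0.21, adjusted p = 0.00861) and 2.84-fold lower in SE than SF (-1.51 ± 0.22, adjusted p = 0.000508), and Ifngr1 2.25-fold (-1.17 ± 0.23, adjusted p = 0.00492) and 1.75-fold lower (-0.81 ± 0.23, adjusted p = 0.0188). Ifnar1 fell in SE versus SF by 1.79 on the log2 scale (adjusted p = 0.00389), but by 0.94 without SF1, whose count was far above that of SF2, and was not called in TE versus TF (-0.83 ± 0.36, adjusted p = 0.121). Under 4 of 14 alternatives Ifnar1 was called there too, without the filter on low counts (adjusted p = 0.004), with only TE and TF in the fit (0.00121), and without SF1 (0.00995) or SF2 (0.00644). Ifngr2, the signaling chain of the type II receptor, ranged from 301 to 657 normalized counts over the 8 libraries and was called in no comparison. The Ifnar2 call in TE versus TF was lost without TF2, TE1 or TE2 (adjusted p = 0.0862, 0.106 and 0.0934), and that of Ifngr1 without TF1 or TE2 (0.0577 and 0.08). In SE versus SF the Ifngr1 call was lost without SF2 or SE2 (adjusted p = 0.0745 and 0.0797). Ifnar2, Ifnar1 and Ifngr2 are neighbors on chromosome 16, between 91372783 and 91565623 (GRCm38).

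Of the transcription factors, Irf1 and Irf7 changed most, and no difference among the groups was called for Irf3. Irf1, an early interferon-induced activator whose promoter GAS is shown above, had 3040 and 3390 normalized counts in TF, 153 and 121 in TE, 3070 and 2670 in SF, and 185 and 205 in SE. Irf7, which amplifies type I interferon production, had 786 and 649 normalized counts in TF, 13 and 15 in TE, 249 and 366 in SF, and 23.5 and 12.3 in SE. Fresh and expanded libraries were separated more than 10-fold in both genes, with no overlap. Irf1 was 22.4-fold lower in TE than TF (-4.49 ± 0.22, adjusted p = 2.5e-06) and 12.9-fold lower in SE than SF (-3.69 ± 0.21, adjusted p = 3.48e-06). For Irf7 the folds were 48.9 (-5.61 ± 0.47, adjusted p = 3.71e-05) and 14.9 (-3.90 ± 0.44, adjusted p = 0.000117). Irf9, the DNA-binding part of the type I complex, had 557 and 630 normalized counts in TF, 190 and 145 in TE, 1310 and 1370 in SF, and 136 and 206 in SE. Stat2, its activating part, had 462 and 865 normalized counts in TF, 241 and 311 in TE, 1340 and 1210 in SF, and 63.8 and 149 in SE. The expanded libraries of Irf9 overlapped between TE and SE, whereas both TE libraries of Stat2 lay above both SE libraries. Irf9 was 3.4-fold lower in TE than TF (-1.77 ± 0.28, adjusted p = 0.00149) and 6.88-fold lower in SE than SF (-2.78 ± 0.29, adjusted p = 7.56e-05). Stat2 fell 10.5-fold in SE versus SF (-3.40 ± 0.45, adjusted p = 0.000294; -4.12 without SE2), and in TE versus TF its log2 fold change was -1.21 (adjusted p = 0.0554), which passed the threshold with median-ratio size factors, without the filter, with DESeq2, with the replicate block and with only those groups in the fit. Irf3, which is constitutively expressed and activated by phosphorylation, ranged from 190 to 710 over all libraries, with its lowest group mean in TF (246 ± 78.5, SD). In TF versus SF Irf3 was not called (-0.99 ± 0.38, adjusted p = 0.0862). It was called lower there without the filter on low counts (0.0289), with DESeq2 (0.0336) and with the replicate block (0.0493).

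The genes of RNA sensing did not move as 1 group. Ifih1, which encodes the double-stranded RNA sensor MDA5, had 387 and 575 normalized counts in TF, 109 and 82.9 in TE, 554 and 577 in SF, and 11 and 10.6 in SE. It fell in both expansions, to a mean of 96 in TE and 10.8 in SE, 4.82-fold in TE versus TF (-2.27 ± 0.34, adjusted p = 0.00113) and 45.5-fold in SE versus SF (-5.51 ± 0.41, adjusted p = 1.21e-05). Eif2ak2, which encodes the kinase PKR that stops translation on double-stranded RNA, had 745 and 1090 normalized counts in TF, 260 and 214 in TE, 4440 and 1390 in SF, and 330 and 470 in SE. All fresh libraries lay above all expanded ones, and SF1 stood apart from SF2. Eif2ak2 was 3.73-fold lower in TE than TF (-1.90 ± 0.46, adjusted p = 0.0144; 0.0519 without TE2) and 6.32-fold lower in SE than SF (-2.66 ± 0.47, adjusted p = 0.00171), a log2 fold change of -1.63 without SF1. Dhx58, which encodes LGP2, a regulator of the RNA sensors, had 101 and 136 normalized counts in TF, 15.3 and 12.6 in TE, 22.2 and 16.4 in SF, and 10.3 and 34.3 in SE. Only the TF libraries were high, and SE1 and SE2 lay on either side of both SF libraries. Its call in TE versus TF (-3.02 ± 0.99, adjusted p = 0.0489) was lost without TF1, TF2, TE1 or TE2 (adjusted p = 0.114, 0.233, 0.188 and 0.224), without the filter on low counts (0.0643), with the replicate block (0.0767) and against the fold threshold (0.0571). Trim25, the ubiquitin ligase that activates the sensor RIG-I, had 1030 and 1260 normalized counts in TF, 572 and 746 in TE, 1170 and 1150 in SF, and 903 and 1020 in SE. The TE libraries were the lowest, and the other groups overlapped or lay close together. The call in TE versus TF (-0.74 ± 0.21, adjusted p = 0.0279) was lost without TF1, TF2, TE1 or TE2 (adjusted p = 0.066, 0.239, 0.318 and 0.0785) and against the fold threshold (0.066).

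The 3 genes of the 2-5A synthetase family make or resemble the enzymes that make the activator of the antiviral RNase L. In expanded cells Oas1a and Oas2 were at 0, and Oasl2 was low but above the limit of detection in TE. Oas1a had 188 and 47.5 normalized counts in TF, 0 and 0 in TE, 15.7 and 12.6 in SF, and 0 and 0 in SE. Oas2 had 136 and 87 normalized counts in TF, 0 and 0 in TE, 37.9 and 31.6 in SF, and 0 and 0 in SE. Oasl2 had 722 and 832 normalized counts in TF, 14.6 and 24.5 in TE, 275 and 297 in SF, and 0 and 4.47 in SE. Both Oas1a and Oas2 were at 0 in all 4 expanded libraries. TF exceeded SF in every library of all 3 genes, a separation found in 31% of all genes tested. None was called in TF versus SF (adjusted p = 0.118 for Oas1a, 0.262 for Oas2 and 0.0511 for Oasl2). Oasl2 was called there without the filter on low counts, with DESeq2, with the replicate block and with only TF and SF in the fit. Against the limit of detection over a group of libraries, Oas1a was at least 50.4-fold lower in TE than TF and at least 5.85-fold lower in SE than SF, and Oas2 at least 47.7-fold and at least 14.4-fold lower. All 4 differences were called (adjusted p = 0.00857 and 0.0237 for Oas1a, 0.00508 and 0.00716 for Oas2). The bound for Oas1a in TE versus TF was 20.3-fold without TF1 and 80.4-fold without TF2. The Oas1a call was lost in TE versus TF without TF1 (0.135), and in SE versus SF without TF1, SE1 or SE2 (0.131, 0.0695 and 0.0586). Oasl2 was 38.1-fold lower in TE than TF (-5.25 ± 0.63, adjusted p = 0.000285) and fell in SE versus SF too (-6.86 ± 0.76, adjusted p = 0.000111), with SE1 at 0 and a log2 fold change between -5.77 without SE1 and -11.03 without SE2. Oas1a and Oas2 lie 146402 bases apart on chromosome 5, and Oas1a has close relatives there between which reads may have been divided.

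Among the antiviral effectors, all 8 were called lower in both expansions. Ifit1, an RNA-binding protein that blocks translation of foreign RNA, had 697 and 767 normalized counts in TF, 66.1 and 99.5 in TE, 459 and 423 in SF, and 41.7 and 34.7 in SE. Ifit2, its relative, had 486 and 516 normalized counts in TF, 130 and 118 in TE, 275 and 552 in SF, and 136 and 67.7 in SE. Ifit3, a partner of Ifit1, had 633 and 1130 normalized counts in TF, 6.88 and 6.68 in TE, 288 and 321 in SF, and 0 and 2.66 in SE. Fresh libraries lay above expanded ones without overlap in all 3 genes, although the size of the change was unequal. Ifit1 was 8.5-fold (-3.09 ± 0.33, adjusted p = 0.000152) and 10.1-fold lower (-3.34 ± 0.34, adjusted p = 6.79e-05) in TE versus TF and SE versus SF, and Ifit2 3.89-fold (-1.96 ± 0.45, adjusted p = 0.0103; 0.0595 without TE2) and 3.58-fold lower (-1.84 ± 0.45, adjusted p = 0.00907; log2 fold change -1.20, adjusted p = 0.0653 without SF2). Ifit3 was 126-fold lower in TE than TF (-6.98 ± 0.62, adjusted p = 5.17e-05), and its ratio of SF to SE, with 3 counts in SE, was 255 (95% counting interval 86.6 to 1240). The fitted log2 fold change of Ifit3 in SE versus SF, -7.64 with all libraries, was -6.57 without SE1 and -11.12 without SE2. The 3 genes lie within 34550694 to 34650009 of chromosome 19, and Ifit3 shares near-identical sequence with Ifit3b, so its counts are uncertain. Ifit3b had 225 and 368 normalized counts in TF, 1.53 and 15.5 in TE, 117 and 43.1 in SF, and 8.09 and 23.6 in SE. It was called lower in TE than TF (-5.03, adjusted p = 0.00755) but not called in SE versus SF (-2.12, adjusted p = 0.101). The counting interval of Ifit3 does not cover how reads were divided between this pair.

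Mx1, a dynamin-like GTPase that traps viral nucleoproteins, had 55.9 and 92 normalized counts in TF, 8.44 and 7.9 in TE, 226 and 180 in SF, and 21.3 and 13.2 in SE. Mx2, its neighbor on chromosome 16, annotated as a polymorphic pseudogene, had 140 and 97.1 normalized counts in TF, 0 and 0 in TE, 258 and 353 in SF, and 0 and 4.4 in SE. SF was above TF in every library of this pair, a separation found in 33.5% of all genes tested, and neither gene was called. Reads may have been divided between the genes. Mx1 was 8.61-fold lower in TE than TF (-3.11 ± 0.73, adjusted p = 0.0118; 0.0558, 0.0721 and 0.0785 without TF2, TE1 and TE2) and 10.2-fold lower in SE than SF (-3.35 ± 0.72, adjusted p = 0.00473). Mx2 was at least 50.7-fold lower in TE than TF (adjusted p = 0.00179), and fell in SE versus SF (-6.93 ± 1.11, adjusted p = 0.00138), with SE1 at 0 and -5.87 without SE1 or -11.13 without SE2. Rsad2, which encodes viperin, had 387 and 356 normalized counts in TF, 27.6 and 22.1 in TE, 218 and 195 in SF, and 18.1 and 45.9 in SE. Bst2, which encodes tetherin, a surface protein that holds budding viruses, had 262 and 387 normalized counts in TF, 1.53 and 6.32 in TE, 70.5 and 19.9 in SF, and 5.86 and 6.16 in SE. Samd9l, an antiviral and growth-inhibiting factor, had 616 and 915 normalized counts in TF, 143 and 106 in TE, 282 and 374 in SF, and 7.33 and 5.28 in SE. Rsad2 in TE and SE overlapped, the TF libraries of Bst2 exceeded all others, and Samd9l in TE lay between fresh cells and SE. Rsad2 was 14.3-fold (-3.84 ± 0.54, adjusted p = 0.000789) and 5.64-fold lower (-2.50 ± 0.52, adjusted p = 0.00402; -3.29 without SE2) after the expansions of teratoma-derived and satellite cells, and Samd9l 5.92-fold (-2.57 ± 0.36, adjusted p = 0.000752) and 44.5-fold lower (-5.48 ± 0.45, adjusted p = 2.08e-05). Bst2 was 77.6-fold lower in TE than TF (-6.28 ± 0.95, adjusted p = 0.00115), with -5.57 without TE1 and -7.54 without TE2. In SE versus SF the Bst2 call (-2.68 ± 0.83, adjusted p = 0.0284) was lost without TF2, SF1, SE1 or SE2 (adjusted p = 0.0669, 0.194, 0.0772 and 0.0671) and with only SE and SF in the fit (0.13), and its log2 fold change was -1.54 without SF1 and -3.29 without SF2.

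**Figure D3:**
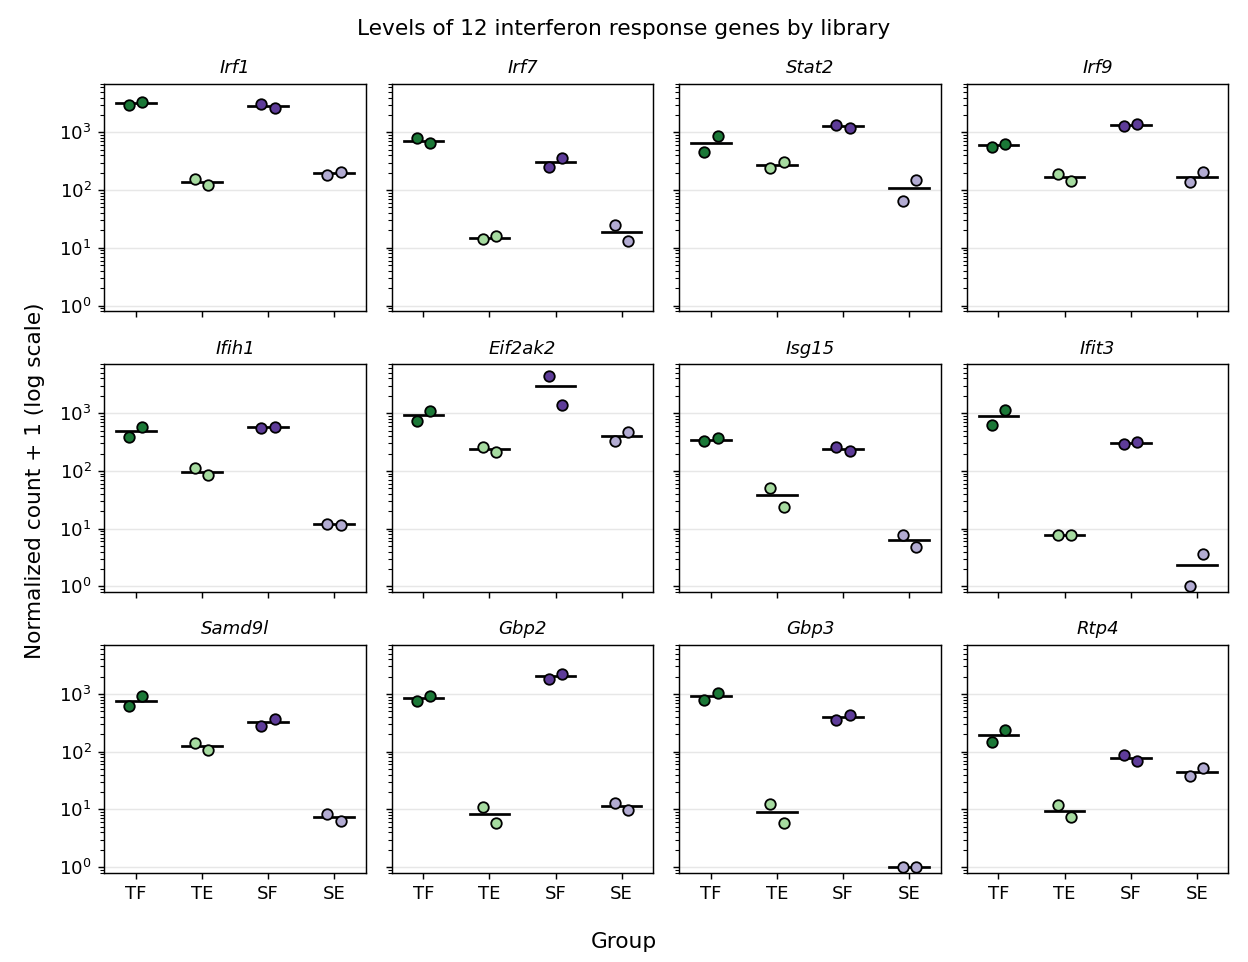
Normalized counts plus 1 (log scale) of 12 of the genes in TF, TE, SF and SE, each point being 1 library and each bar the group mean. Irf1, Gbp2 and Gbp3 drop by more than 10-fold with expansion in both cell types, whereas Ifih1 and Samd9l drop further in SE than in TE, and Rtp4 further in TE than in SE.

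The ISG15 pathway was represented by the ubiquitin-like modifier Isg15 and by Usp18, the protease that removes it and also restrains the type I receptor. Isg15 had 330 and 366 normalized counts in TF, 50.5 and 22.9 in TE, 257 and 219 in SF, and 6.63 and 3.83 in SE. Usp18 had 319 and 480 normalized counts in TF, 11.5 and 1.58 in TE, 73.1 and 19.9 in SF, and 0 and 0.879 in SE. Isg15 in TE lay above SE in every library, and Usp18 reached 0 or 1 count in SE. Isg15 was 9.07-fold lower in TE than TF (-3.18 ± 0.53, adjusted p = 0.00198; -3.83 without TE1) and 39.7-fold lower in SE than SF (-5.31 ± 0.61, adjusted p = 0.000139). Usp18 was 57.6-fold lower in TE than TF (-5.85 ± 1.03, adjusted p = 0.00271), with -7.80 without TE1 and -5.02 without TE2. The ratio of SF to SE for Usp18, with 1 count in SE, was 113 (95% counting interval 19.6 to 4510, adjusted p = 0.00413), and the call held with each of these libraries left out. The fitted log2 fold change of Usp18, -6.27 with all libraries, was -5.10 without SF1 (adjusted p = 0.02), -6.90 without SF2 (0.0014), -5.29 without SE1 (0.00909) and -8.39 without SE2 (0.00378).

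Guanylate-binding proteins are GTPases that attack vacuoles of intracellular pathogens. The 3 genes of this family on the list, Gbp2, Gbp3 and Gbp7, gave some of the largest drops. Gbp2 had 765 and 914 normalized counts in TF, 9.98 and 4.74 in TE, 1800 and 2240 in SF, and 11.7 and 8.79 in SE. Gbp3 had 774 and 1050 normalized counts in TF, 11.5 and 4.74 in TE, 356 and 424 in SF, and 0 and 0 in SE. Gbp7 had 519 and 723 normalized counts in TF, 32.2 and 61.6 in TE, 570 and 593 in SF, and 21.3 and 14.1 in SE. All expanded libraries were below all fresh ones, and Gbp3 was at 0 in both SE libraries while TE kept 15 and 6 counts. Gbp2 was 108-fold lower in TE than TF (-6.75 ± 0.37, adjusted p = 4.29e-06; -7.35 without TE1) and 169-fold lower in SE than SF (-7.41 ± 0.37, adjusted p = 1.86e-06). Gbp3 was 106-fold lower in TE than TF (-6.73 ± 0.50, adjusted p = 3.75e-05; -7.47 without TE1) and at least 161-fold lower in SE than SF (adjusted p = 1.82e-05), and Gbp7 12.7-fold (-3.67 ± 0.42, adjusted p = 0.000216) and 28.5-fold lower (-4.83 ± 0.45, adjusted p = 4.06e-05). The 3 genes are neighbors on chromosome 3 (142530342 to 142638008), resemble each other and other genes of the family, and their counts are uncertain where reads fit more than 1 of them. Other genes of the family did not all drop. Gbp5 was called lower in both expansions (-4.75 and -6.07), while Gbp4 (-0.69 and -0.38), Gbp6 (-1.40 and -0.88) and Gbp10 (-2.38 and 1.02) were called in neither. Gbp9 was not called in TE versus TF (-0.12) and was called higher in SE than SF (2.21).

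Parp14, an ADP-ribosyltransferase, had 1040 and 611 normalized counts in TF, 32.2 and 24.5 in TE, 1660 and 1910 in SF, and 10.3 and 0 in SE. Parp9, which acts with the ubiquitin ligase Dtx3l on chromatin, had 354 and 536 normalized counts in TF, 22.1 and 42.7 in TE, 492 and 461 in SF, and 10.9 and 12.4 in SE. Dtx3l had 541 and 680 normalized counts in TF, 59.6 and 41.9 in TE, 722 and 787 in SF, and 62.6 and 101 in SE. The genes fell together in both expansions, Dtx3l least in SE. Parp14 was 27.8-fold lower in TE than TF (-4.80 ± 0.59, adjusted p = 0.000354), and in SE versus SF, with SE2 at 0, its log2 fold change was -8.13 (adjusted p = 3.27e-05), with -13.62 without SE1 and -7.23 without SE2. Parp9 was 13.2-fold (-3.72 ± 0.44, adjusted p = 0.000288) and 35.5-fold lower (-5.15 ± 0.49, adjusted p = 4.46e-05), and Dtx3l 11.5-fold (-3.53 ± 0.36, adjusted p = 0.000122) and 8.09-fold lower (-3.02 ± 0.35, adjusted p = 0.000151). The 3 genes lie between 35832874 and 35972605 on chromosome 16, where Dtx3l and Parp9 overlap by 682 bases on opposite strands. The kit marks strand, but whether strand was used in counting was not given in the sources used here.

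The other 5 genes differed from each other. Ifi27, an interferon-induced membrane protein, had 536 and 569 normalized counts in TF, 374 and 273 in TE, 535 and 551 in SF, and 92.3 and 142 in SE. Ifi35, which forms complexes with Nmi, had 197 and 112 normalized counts in TF, 141 and 91.6 in TE, 368 and 354 in SF, and 68.2 and 25.5 in SE. Ifi44, an induced gene of less settled function, had 141 and 112 normalized counts in TF, 63.7 and 38.5 in TE, 93.2 and 23.8 in SF, and 1.47 and 0.923 in SE. In all 3 genes the lowest libraries were those of SE, and both TE libraries lay above both SE libraries. In SE versus SF Ifi27 was 4.05-fold lower (-2.02 ± 0.32, adjusted p = 0.000857), Ifi35 6.72-fold lower (-2.75 ± 0.57, adjusted p = 0.00397; -3.60 without SE1), and the ratio of SF to SE for Ifi44, with 3 counts in SE, was 46.8 (95% counting interval 15.5 to 231, adjusted p = 0.00387; fitted log2 fold change -5.27, with -4.0 and adjusted p = 0.0172 without SF1, and -5.92 and 0.00156 without SF2). In TE versus TF none of the 3 was called, with log2 fold changes of -0.72 ± 0.30, adjusted p = 0.111 for Ifi27, -0.35 ± 0.53, adjusted p = 0.66 for Ifi35 and -1.25 ± 0.84, adjusted p = 0.296 for Ifi44. Xaf1, a promoter of cell death, had 523 and 652 normalized counts in TF, 73.6 and 112 in TE, 224 and 66.9 in SF, and 17.1 and 40.8 in SE. Rtp4, a chaperone of membrane receptors, had 148 and 238 normalized counts in TF, 10.7 and 6.32 in TE, 84.9 and 66.6 in SF, and 36.6 and 51.9 in SE. Xaf1 was highest in TF, and Rtp4 was lowest in TE, below all SE libraries. Xaf1 was 6.11-fold lower in TE than TF (-2.61 ± 0.61, adjusted p = 0.012; 0.0625 without TE1), and its call in SE versus SF (-2.14 ± 0.63, adjusted p = 0.0218) was lost without SF1 or SE1 (log2 fold change -1.06 and -1.60, adjusted p = 0.201 and 0.0763) and with only SE and SF in the fit (0.0958), while it was -2.74 without SF2 and -2.89 without SE2. Rtp4 was 21.5-fold lower in TE than TF (-4.43 ± 0.73, adjusted p = 0.00195) and not called in SE versus SF (-0.58 ± 0.63, adjusted p = 0.478).

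On a scale per length (mean normalized counts per 1000 bases of the longest coding transcript), Irf1 held the highest level of the 37 genes in both fresh groups, at 1500 in TF and 1340 in SF. In TE the highest was Ifi27 at 331, followed by Ifnar1 at 261 and Ifngr1 at 184. In SE it was Ifnar1 at 246, followed by Irf3 at 226 and Ifngr1 at 205. Irf1 stood at 64.1 in TE and 91.2 in SE on this scale.

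Whether the 2 origins lost the same amount was tested by the interaction, the log2 fold change of TE versus TF minus that of SE versus SF. In it 5 genes were called higher, meaning a smaller drop in teratoma-derived cells (4.7% of all genes tested), and 1 lower (9.62%). Ifih1 (-2.27 against -5.51, difference 3.24 ± 0.50, adjusted p = 0.00306) and Samd9l (-2.57 against -5.48, difference 2.91 ± 0.55, adjusted p = 0.00739) were called with each of the 8 libraries left out in turn. The difference for Stat2 was 2.19 ± 0.58, adjusted p = 0.0346, and its call was lost without TF1, TE2 or SF1 (adjusted p = 0.0742, 0.0752 and 0.0738), while the difference was 2.92 without SE2. For Parp14 it was 3.33 ± 0.88, adjusted p = 0.0338, resting on 14 counts in SE1 and 0 in SE2 (8.85 without SE1, 2.44 without SE2), and the call was lost without TF2, TE1, SF1 or SF2 (0.0555, 0.0602, 0.0554 and 0.0504). Gbp3 was called (adjusted p = 0.0423), with no interpretable size since both SE libraries were at 0, and the call was lost without TF1 (0.0651), TE1 (0.102), SF1 (0.058), SF2 (0.0576), SE1 (0.0981) or SE2 (0.0694) and with the replicate block (0.0533). Rtp4 was the 1 gene called lower (-3.85 ± 0.94, adjusted p = 0.024), a larger drop in teratoma-derived cells, and its call was lost without TF2 (0.117), TE1 (0.0512), TE2 (0.0931) or SF2 (0.0552). Irf1 and Irf7 were not called, with differences of -0.80 ± 0.27, adjusted p = 0.0823 and -1.71 ± 0.58, adjusted p = 0.0823.

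**Figure D4:**
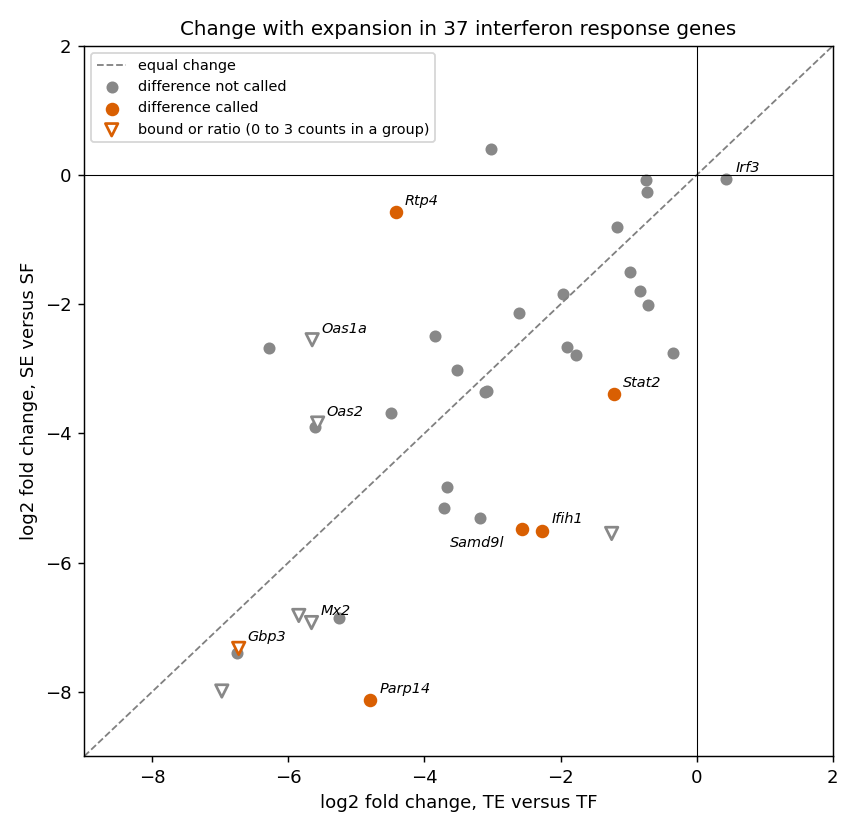
log2 fold change of the 37 genes in TE versus TF (x axis) and SE versus SF (y axis), 1 point per gene, with the dashed line at equal change. Orange marks the 6 genes whose 2 changes differ by the test, open triangles are genes with 0 to 3 counts in an expanded group, placed at the bound against 3 counts or at the ratio of counts, and most points lie below 0 on both axes.

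Fresh teratoma-derived and satellite cells held these genes at sums that overlapped (22200 and 25300 in TF, 30100 and 24600 in SF), with single genes higher in either. The median log2 fold change in TF versus SF was 0.25 (0.08 over all genes), 22 genes had their highest group mean in TF and 15 in SF. In TF versus SF 7 genes were called higher (Irf7, Ifit3, Bst2, Samd9l, Usp18, Gbp3 and Xaf1), where 15.1% of all genes were called higher, and 3 lower (Irf9, Eif2ak2 and Gbp2), where 9.13% were. The largest differences were those of Usp18 (9.7-fold, 3.28 ± 0.89, adjusted p = 0.0255), Bst2 (8.1-fold, 3.02 ± 0.79, adjusted p = 0.0218) and Xaf1 (4.55-fold, 2.19 ± 0.60, adjusted p = 0.027), each with both TF libraries above both SF libraries. Smaller ones were found for Ifit3 (1.69 ± 0.47, adjusted p = 0.0265), Gbp3 (1.38 ± 0.38, adjusted p = 0.0295), Samd9l (1.38 ± 0.35, adjusted p = 0.0184) and Irf7 (1.38 ± 0.38, adjusted p = 0.027). Eif2ak2 (-1.49 ± 0.45, adjusted p = 0.0387), Gbp2 (-1.11 ± 0.27, adjusted p = 0.015) and Irf9 (-1.02 ± 0.27, adjusted p = 0.0235) were higher in SF. The RNA sensor Ifih1 did not pass (-0.07, 95% confidence interval -0.80 to 0.65), and neither did Irf1 (0.32, 95% confidence interval -0.10 to 0.74) or Isg15 (0.71, 95% confidence interval -0.37 to 1.79). None of the 10 calls held with each library left out in turn. Without TF2 only Gbp2 and Eif2ak2 were called, without TF1 5 genes, without SF1 5 and without SF2 4. For Eif2ak2 the log2 fold change was -0.48 without SF1 (adjusted p = 0.371), and its call was also lost with the replicate block (0.0526), with only TF and SF in the fit (0.0745) and against the fold threshold (0.0544). Bst2, Usp18 and Xaf1 had 4.14, 4.44 and 3.26 without SF1 and 2.40, 2.65 and 1.59 without SF2. Without TF1 the log2 fold changes were 1.24 for Irf7, 1.59 for Gbp3, -0.92 for Irf9, -0.98 for Gbp2 and -1.23 for Eif2ak2. The macrophage markers of TF1 stood far above those of both SF libraries, and their part in the differences between TF and SF was not tested. The genome of the E14 line and the injured host muscle of the teratomas cannot be told apart from origin in this comparison.

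After expansion, 7 genes were called higher in TE than SE and 0 lower, against 3.15% of all genes called higher and 4.07% lower. At an unadjusted p under 0.05 in edgeR 3 were lower (Irf1, Trim25 and Rtp4), and DESeq2 called 1 lower (Rtp4, adjusted p = 0.0128). The RNA sensor Ifih1 was 8.96-fold higher in TE (3.16 ± 0.39, adjusted p = 0.00151) and Samd9l 19.5-fold higher (4.29 ± 0.44, adjusted p = 0.000613). Gbp3 was at least 3.36-fold higher (adjusted p = 0.0133; at least 1.96-fold and 0.0372 without TE1), and the ratio for Ifi44, with 3 counts in SE, was 42.8 (95% counting interval 14.3 to 210, adjusted p = 0.0175). These 4 calls held with each library left out in turn. Isg15 was 7.16-fold higher (2.84 ± 0.58, adjusted p = 0.0183), a log2 fold change of 2.17 without TE1 (adjusted p = 0.111). Oasl2, with 0 and 5.08 counts in SE, was 9.23-fold higher (3.21 ± 0.79, adjusted p = 0.0391), with 2.79 without TE2 (0.125), 2.14 without SE1 (0.0641) and 7.39 without SE2. Ifi27 was 2.8-fold higher (1.49 ± 0.31, adjusted p = 0.0199), and missed the threshold without TE1 (0.158) or SE1 (0.0752). With only TE and SE in the fit, the adjusted p was 0.146 for Isg15, 0.293 for Oasl2 and 0.0602 for Ifi27. The marker lists of other cell types summed to at most 101 in these 4 libraries. Origin cannot be told apart from the genome of the E14 line or the earlier host muscle here, nor in the interaction. No transcription factor or receptor passed the test of the fit over all 4 groups. The difference was 0.00 for Irf9 (95% confidence interval -0.62 to 0.62), -0.34 for Irf7 (95% confidence interval -1.33 to 0.66), -0.48 for Irf1 (95% confidence interval -0.92 to -0.03) and 0.11 for Ifnar1 (95% confidence interval -0.70 to 0.91). For Stat2 it was 1.40 ± 0.42, adjusted p = 0.0823, with a log2 fold change of 0.92 without SE1 (0.211), and it was called under 6 of 14 alternatives: without the filter on low counts (0.000205), with DESeq2 (0.0298), with the replicate block (0.0301), and without TF1 (0.0376), TF2 (0.045) or SE2 (2.14, 0.00372). Rtp4 did not pass either, the 1 gene of the list more than 4-fold lower in TE (-2.34 ± 0.68, adjusted p = 0.0756), apart from Mx2, for which no fold is given because TE was at 0 and SE held 0 and 5 counts.

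**Figure D5:**
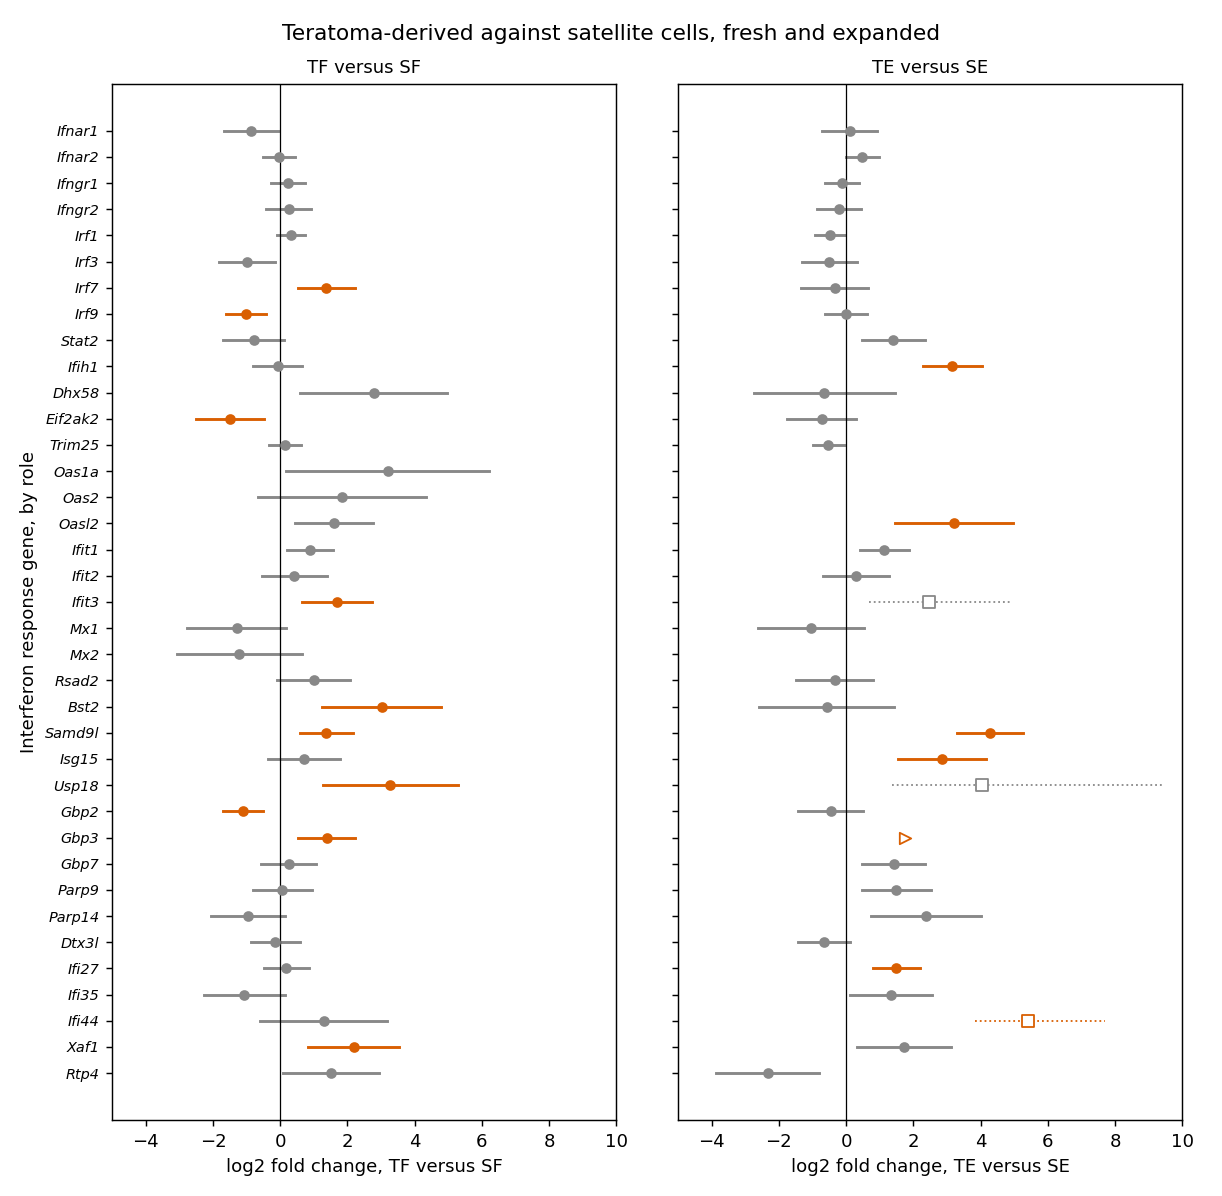
log2 fold change with its 95% confidence interval for each of the 37 genes in TF versus SF (left) and TE versus SE (right), with calls in orange, of which all 7 at right lie above 0, and at left 7 lie above and 3 below. At right, the open triangle (Gbp3) is a lower bound with no interval, open squares with dotted lines are ratios of counts with counting intervals where SE had 1 to 3 counts, and Oas1a and Oas2 are not drawn because both groups were at or under the limit of detection, nor is Mx2, with TE at 0 and 0 and 5 counts in SE.

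A further 86 genes of the pathway were counted in the same fit, of which 77 passed the filter. In TE versus TF 42 of the 77 were called lower and 0 higher (0 at an unadjusted p under 0.05 in edgeR), against 16.2% of all genes called lower and 9.86% higher. In SE versus SF 40 were called lower and 2 higher, against 19.8% and 20.9% of all genes. Those called lower in both include Jak1, Irf8 and Ddx58 (RIG-I). Iigp1, a GTPase that disrupts pathogen vacuoles, had 809 and 1330 normalized counts in TF, 0 and 0 in TE, 1320 and 1650 in SF, and 0 and 0 in SE. Irf8, a factor of haematopoietic lineages, had 229 and 111 normalized counts in TF, 0 and 0 in TE, 653 and 637 in SF, and 0 and 0 in SE. Both were at 0 in every expanded library, at least 457-fold and 72.7-fold lower in TE than TF and at least 614-fold and 267-fold lower in SE than SF for Iigp1 and Irf8, with at least 47.5-fold for Irf8 in TE versus TF without TF1. Trim30a, a regulator of innate signaling, had 194 and 103 normalized counts in TF, 0 and 0 in TE, 215 and 176 in SF, and 0 and 0 in SE. Ifi27l2a, a relative of Ifi27 with which it may share reads, had 177 and 250 normalized counts in TF, 3.84 and 0 in TE, 15.7 and 29.2 in SF, and 3.66 and 4.4 in SE. Trim30a was at least 63.7-fold lower in TE than TF, and Ifi27l2a was lower too (-6.65 ± 1.26, adjusted p = 0.00413), with -10.73 without TE1 and -5.67 without TE2. The genes called higher in SE than SF were Gbp9 (2.21 ± 0.32, adjusted p = 0.000494) and Pml (1.02 ± 0.25, adjusted p = 0.00999), named after their values were seen. The Gbp9 call held with each library left out in turn, and that of Pml was lost without SF1 (0.0584) or SE1 (0.0665).

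The other genes were named for large called differences between the origins, in fresh cells, in expanded cells or in the change with expansion. Nmi and Cxcl10 were not called in TF versus SF. Nmi, a partner of STAT proteins and of Ifi35, had 160 and 194 normalized counts in TF, 17.6 and 38.7 in TE, 225 and 209 in SF, and 0 and 0 in SE. Cxcl10, a chemokine induced by interferon, had 450 and 479 normalized counts in TF, 10.7 and 15.8 in TE, 161 and 245 in SF, and 0 and 0 in SE. Both were at 0 in SE only, at least 89.7-fold and 84-fold lower in SE than SF and at least 11.7-fold and 5.49-fold higher in TE than SE for Nmi and Cxcl10. Without TE2 the bound for Nmi in TE versus SE was 7.3-fold. With only TE and SE in the fit neither passed (adjusted p = 0.0663 and 0.107). Oas1b, another 2-5A synthetase, had 49.1 and 49.7 normalized counts in TF, 6.42 and 0.853 in TE, 461 and 296 in SF, and 29.9 and 34 in SE. Lgals9, a galectin, had 897 and 836 normalized counts in TF, 233 and 190 in TE, 275 and 459 in SF, and 8.79 and 58.9 in SE. Oas1b was lower in TE than SE (-3.14 ± 0.78, adjusted p = 0.0402; -5.12 without TE1, and -2.34 with adjusted p = 0.204 without TE2), and not called without SF1 (0.0825) or SF2 (0.0529), while Lgals9 was higher (2.68 ± 0.66, adjusted p = 0.0391; 0.0715 without TE1, 1.87 without SE1 and 4.60 without SE2). Neither passed with only TE and SE in the fit (adjusted p = 0.173 for Oas1b and 0.107 for Lgals9) or against the fold threshold (0.0511 and 0.0504). Helz2, a helicase coactivator, had 1180 and 1300 normalized counts in TF, 328 and 326 in TE, 5170 and 5880 in SF, and 136 and 147 in SE. Lgals3bp, a secreted galectin-binding protein, had 1780 and 1360 normalized counts in TF, 111 and 116 in TE, 227 and 382 in SF, and 119 and 179 in SE. Helz2 was lower in TF than SF (-2.0 ± 0.18, adjusted p = 0.000171) yet higher in TE than SE (1.23 ± 0.19, adjusted p = 0.00421), and Lgals3bp was higher in TF than SF (2.51 ± 0.34, adjusted p = 0.000977). In TF versus SF 3 of the 77 genes were called higher and 6 lower, among them Ifi27l2a higher (3.39 ± 1.05, adjusted p = 0.042) and Oas1b lower (-2.78 ± 0.69, adjusted p = 0.0176), neither of which held with each library left out (adjusted p of Ifi27l2a 0.0842, 0.222, 0.15 and 0.0777 without TF1, TF2, SF1 and SF2, and of Oas1b 0.0541, 0.06 and 0.112 without TF1, TF2 and SF1). The call of Ifi27l2a was also lost with median-ratio size factors (0.0531), with the replicate block (0.0566) and against the fold threshold (0.0503). These counts stand against 15.1% of all genes called higher and 9.13% lower. In TE versus SE 6 were called higher and 4 lower, against 3.15% and 4.07% of all genes, and in the interaction 8 higher and 6 lower, against 4.7% and 9.62%.

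The interferons themselves were at 0 in most libraries and at no more than 34 normalized counts in any. Of 10 ligand genes, only Ifnl3 passed the filter, with 10.6 normalized counts in TF1, 14.4 in SF1 and 0 in the other 6 libraries, and it was called in no comparison. Ifnb1 and Ifnl2 were at 0 in all 8 libraries. Ifnk reached 34 in TF2 and Ifna5 17 in SF1, and both were at 0 elsewhere. Ifna1, Ifna2, Ifna4 and Ifng were above 0 in SF1 alone, like Ifna5, at 9.14 or less, and Ifne in SE2 alone, at 4.4. The Ifna genes are near-identical, and their counts are uncertain. Some ligands thus passed the limit of detection in single libraries. Production at a lower level or by few cells may have gone undetected at this depth, and ligand genes outside these 10 were not examined.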

How the data were processed

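RNA-seq libraries of 8 mouse samples were made with a strand-specific SMARTer kit for small amounts of total RNA. Per the labels, kallisto 0.44.0, CASAVA and GRCm38/mm10 were used. How transcript estimates were summed to genes and whether strand was used were not given in the sources used here. The authors deposited estimated counts, not normalized, for 24980 gene symbols (74.4% to 84.4% of a library's values were whole numbers), and 0 columns were left unused. Pseudo-alignment shares reads between similar genes, which affects paralogs.

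Counts were rounded, filtered with filterByExpr, normalized by TMM and tested with the quasi-likelihood test of edgeR 4.0.16 (R 4.3.3) in a single model of the 4 groups with no block for replicate number. Normalized counts are estimated counts divided by median-ratio size factors. The common dispersion was 0.233. Within every group the libraries differed beyond counting noise (chi-square per degree of freedom 11.7 to 87.2) and were counted separately. Genes called in at least 1 comparison are given with the value of every library, and of the 86 other pathway genes up to 4 per comparison with the largest change are named. Members and lists were chosen with earlier results of these data known. Gene positions are those of GENCODE M21, promoters those of RefSeq. The code was tested on simulated data. The alternatives were median-ratio size factors, no filter, DESeq2 1.42.0, only the groups compared, glmTreat against the fold threshold, a replicate block and each library left out in turn.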

Additional observations from a re-analysis of the deposited data

Results flagged for a closer look

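The change with expansion differed between teratoma-derived and satellite cells for 12 of the named genes by the interaction test of edgeR. It is given as the log2 fold change of TE versus TF minus that of SE versus SF. Nmi, Cxcl10, Helz2 and Lgals3bp were named for their large called values, in this test among others, so the 12 are partly a product of selection. The test called 6 of the 37 interferon response genes (16.2%), 14 of the 77 other pathway genes (18.2%) and 14.3% of all genes tested. Among the interferon response genes the difference was 3.24 for Ifih1, 2.91 for Samd9l, 3.33 for Parp14, 2.19 for Stat2 and -3.85 for Rtp4. For Gbp3 the fitted difference was 4.77, which depends on the prior count because SE was at 0 and is not a size. Among the other pathway genes it was 3.23 for Helz2 and -2.88 for Lgals3bp, and the fitted differences of 8.06 for Nmi and 5.5 for Cxcl10 likewise rest on 0 counts in SE. For Gbp9 (-2.33) and Pml (-1.34), named after their values were seen, SE was above SF, and the call of Pml was lost under 6 of 13 alternatives (adjusted p up to 0.161 without TE2). For Helz2, Lgals3bp, Nmi, Cxcl10 and Gbp9 the call held with each library left out in turn, as for Ifih1 and Samd9l. With 2 libraries per group no library could be tested for standing apart from its group.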

How the results depend on the processing

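The counts of genes called in TE versus TF (23 to 34 under all alternatives), in SE versus SF (29 to 32) and for any difference among the 4 groups (32 to 35) stayed within 1.5 times those reported. In TF versus SF the count of 10 became 15 without the filter on low counts, and ranged from 2 without TF2 to 14 without SE1, with 5 without TF1, 5 without SF1 and 4 without SF2. In TE versus SE the count of 7 became 15 without the filter on low counts, 12 with DESeq2 and 3 with only TE and SE in the fit (30 genes tested), and 5 to 10 with a library left out. The 6 genes of the interaction became 11 with DESeq2, and 3 (without TE1) to 9 with a library left out. Leaving out libraries in turn gave 23 to 31 in TE versus TF, 29 to 32 in SE versus SF and 32 to 35 for any difference. The causes were not tested. Of 1183 values of called member genes under alternatives, 1090 kept their direction and call, 93 lost the call and 0 changed sign, while 43 values of named genes, called neither in the reported fit nor under the alternative, changed sign.

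Same-numbered replicates were not paired by the labels, and their deviations from the group means correlated between -0.03 and 0.08. With the replicate block the counts were 30, 32, 11, 8, 6 and 33 for TE versus TF, SE versus SF, TF versus SF, TE versus SE, the interaction and any difference. With 2 libraries per group, low counts in expanded cells limit the sizes of the largest drops.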
